A study of Homo sapiens with 16 samples.

Results

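RNA polymerase II (Pol II) and the factors that accompany it during elongation were described in RNA-seq of 293T cells, a human embryonic kidney line, after depletion of SETD2 or of hnRNP L. The members were the 39 genes chosen by symbol, out of 58884 genes with a value. They comprised the 12 Pol II subunits, both subunits of DSIF, SUPT6H and IWS1, both subunits of FACT and 5 of the PAF1 complex. CDK9 with its cyclins CCNT1 and CCNT2, and CDK12 and CDK13 with cyclin CCNK, were included. So were the scaffold and stimulating factors ELL, ELL2, AFF1 and AFF4, 4 subunits of NELF, and the TFIIS genes TCEA1 and TCEA2. Wild-type 293T cells were transfected for 72 h with a pool of scramble siRNA, SETD2 siRNA or hnRNP L siRNA, and 2 libraries were sequenced for each siRNA. All cells were of 1 line without an engineered allele, and every group, the scramble control included, had been through transfection. The other 10 samples of the series are ChIP samples and were not analysed here. Values are TPM, transcript abundances scaled for length and to a fixed total per library, and fold changes are on the log2(TPM + 0.5) scale.

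Pol II makes the messenger RNA of nuclear genes, and soon after initiation it is held near the promoter by DSIF and NELF. The kinase P-TEFb, CDK9 with a cyclin T, releases it by phosphorylating these factors and the C-terminal domain (CTD) of the largest subunit. SPT6, FACT and the PAF1 complex then travel with the polymerase through chromatin, and SETD2 binds the phosphorylated CTD and methylates histone H3 over transcribed genes. The comparisons ask whether the RNA level of this machinery itself differed once SETD2, or the RNA-binding splicing factor hnRNP L, was depleted.

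Both targets were depleted at the RNA level. SETD2 was at 13.38 and 11.70 TPM in the scramble, 4.24 and 4.91 TPM in the SETD2 and 10.80 and 10.24 TPM in the hnRNP L siRNA libraries. HNRNPL was at 341.04 and 457.16 TPM in the scramble, 394.73 and 413.42 TPM in the SETD2 and 25.04 and 28.81 TPM in the hnRNP L siRNA libraries. The libraries differed in the share of TPM from the mitochondrially encoded genes, which was 17.5% in scramble library 1 and 6.70% to 10.9% in the other 5, which leaves a smaller total of TPM for nuclear genes in that library. Markers of the HEK293 lineage were present, with VIM at 649.50 to 940.78 TPM, KRT8 at 31.12 to 43.43 TPM and KRT18 at 59.68 to 77.24 TPM. NEFL and NEFM, neurofilament genes among these markers, were higher with hnRNP L siRNA than with scramble siRNA, by 0.82 ± 0.11 and 1.21 ± 0.12 (log2 ± SE, limma adjusted p = 0.00515 and 0.00166). Of the 6 markers of other cell types, PTPRC was at 0 in every library, CD3E, ALB, PECAM1 and HBB stayed between 0 and 0.4 TPM, and the fibroblast marker COL1A1 was at 2.83 to 5.17 TPM.

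The listed elongation machinery was expressed. All 39 members were above 0 in all 6 libraries and passed the filter of a mean of at least 0.5 TPM, which left 16300 genes to test. Levels spanned 2 orders of magnitude, from AFF1 at 3.69 TPM in hnRNP L library 1 to SSRP1 at 727.16 TPM in hnRNP L library 2. SSRP1, a subunit of the histone chaperone FACT, was the highest member in every library. The lowest were ELL, ELL2 and AFF1, none of which exceeded 7 TPM. Relative levels of the members were similar among libraries. Pearson's r of log2(TPM + 0.5) across the 39 members was between 0.986 and 0.998 for the 15 pairs of libraries. Members are not independent replicates.

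**Figure D1:**
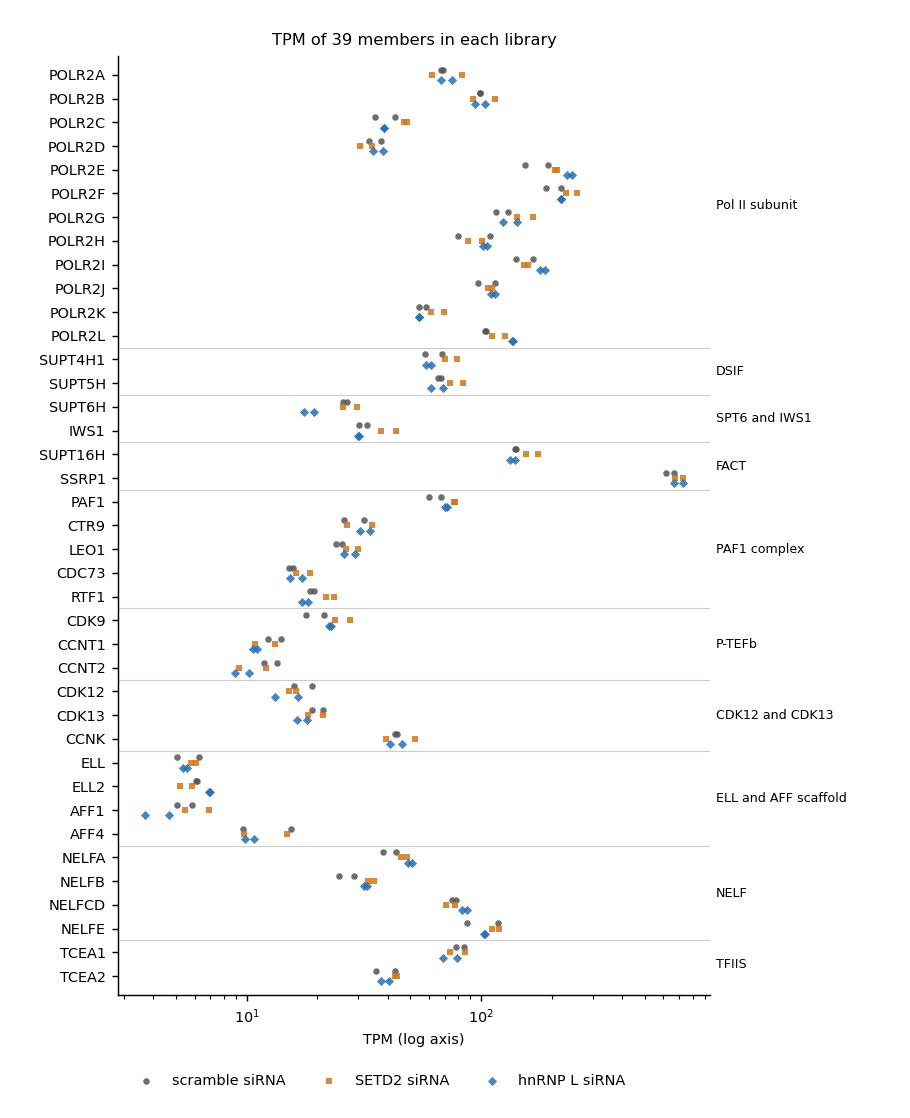
TPM (log axis) of each of the 39 members in each of the 6 libraries, grouped by role; circles are scramble, squares SETD2 and diamonds hnRNP L siRNA, and each point is 1 library. SSRP1 lies above all other members, ELL, ELL2 and AFF1 lie lowest, and for most members the 3 siRNAs lie close together beside the range among members.

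Subunits of the same polymerase were not at the same RNA level. In the scramble libraries POLR2F had the highest mean, 204 ± 20.1 TPM, followed by POLR2E at 174 ± 26.7 TPM and POLR2I at 154 ± 17.8 TPM (SD, n = 2). The lowest were POLR2D at 35.4 ± 2.78 TPM and POLR2C at 39.3 ± 5.47 TPM, which differed by less than the spread of POLR2C. POLR2B, the second largest subunit, was at 98.6 ± 0.0849 TPM and POLR2A, the largest subunit, which carries the CTD, at 68.3 ± 0.870 TPM. Neighbours in this order were often closer than their spread, as for POLR2J at 106 ± 12.6 TPM and POLR2L at 104 ± 0.417 TPM. POLR2E, POLR2F, POLR2H, POLR2K and POLR2L are shared with Pol I and Pol III, and their levels over the 6 libraries ran from 54.51 TPM for POLR2K to 257.77 TPM for POLR2F. The level of POLR2J is uncertain, since near-identical copies can take its reads: under the symbol POLR2J3, 2 rows of the table were at 70.28 to 95.13 TPM and 144.22 to 184.55 TPM.

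POLR2A was similar in all groups. It was at 68.88 and 67.65 TPM in the scramble, 62.03 and 83.16 TPM in the SETD2 and 67.71 and 75.26 TPM in the hnRNP L siRNA libraries. The groups overlapped, and the SETD2 siRNA libraries lay on both sides of the scramble libraries. The log2 fold change was 0.07 ± 0.14 after SETD2 depletion (limma adjusted p = 0.854) and 0.06 ± 0.14 after hnRNP L depletion (adjusted p = 0.803). The 95% intervals were -0.24 to 0.39 and -0.25 to 0.38, which do not reach 1.5-fold in either direction.

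Upon SETD2 depletion, no member was called, which took a Benjamini-Hochberg adjusted limma p below 0.05 together with a change of more than 1.5-fold. These cut-offs are those of the study, which applied them to another test, edgeR, and to protein-coding and lncRNA genes only. The counts here are therefore not its counts, which were higher after SETD2 depletion. Both cut-offs were passed by 17 of the 16300 genes tested, 0.104%. An adjusted p under 0.05 alone was passed by the same number, 0.104%, none of them members. With protein-coding and lncRNA genes only, 60 genes passed both cut-offs, 0.411%, again none of them members. At an unadjusted limma p under 0.05 there were 9 members, 23.1% of the 39, against 13.1% of all tested genes. These 9 were CDK9, IWS1, NELFB, PAF1, POLR2C, POLR2E, POLR2F, POLR2G and RTF1, and in each the SETD2 siRNA mean was the higher one. Both SETD2 siRNA libraries were above both scramble libraries for 18 members, 46.2%, against 22.9% of all tested genes. Groups that do not overlap in either direction were seen for 19 members, 48.7%, against 43.5%, the exception in direction being ELL2. The median log2 fold change was 0.15 over the members and 0.01 over all tested genes. A median above that of all genes was also seen in the related lists described below. It was 0.13 over 9 CTD phosphatases and partners, 0.11 over 18 general transcription factors and 0.07 over 17 other elongation regulators. Over 19 subunits of Pol I and Pol III it was 0.06, and over the 5 tested rows of POLR2J copies and POLR2M 0.05.

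Over the members, the size of this gap to all genes after SETD2 depletion depended little on the scaling, while the sign of single members did. The median of the members exceeded that of all tested genes by 0.13 in the deposited TPM, 0.13 after median-ratio scaling, 0.10 after quantile normalization and 0.12 once the 37 mitochondrially encoded genes were left out of the TPM. The median of the 12 Pol II subunits exceeded it by 0.12, 0.11, 0.06 and 0.11 under the same settings. Of these subunits, 11, 11, 7 and 9 lay above the median of all tested genes. The log2 fold change was above 0 for 30, 30, 27 and 21 of 39 members, against 52.7%, 50.1%, 52.0% and 36.5% of all tested genes. A gap was also seen after hnRNP L depletion, against the same scramble libraries. Under the same settings it was 0.11, 0.12, 0.06 and 0.11 for the members. For the Pol II subunits it was 0.18, 0.19, 0.11 and 0.17. The summed TPM of the 12 subunits was 1176 and 1342 with scramble siRNA, 1423 and 1394 with SETD2 siRNA, and 1406 and 1448 with hnRNP L siRNA. Without the mitochondrially encoded genes the same sums were 1426 and 1456, 1526 and 1494, and 1577 and 1587. Both depletions still lay above both scramble libraries, but the gap to scramble library 1 narrowed.

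**Figure D2:**
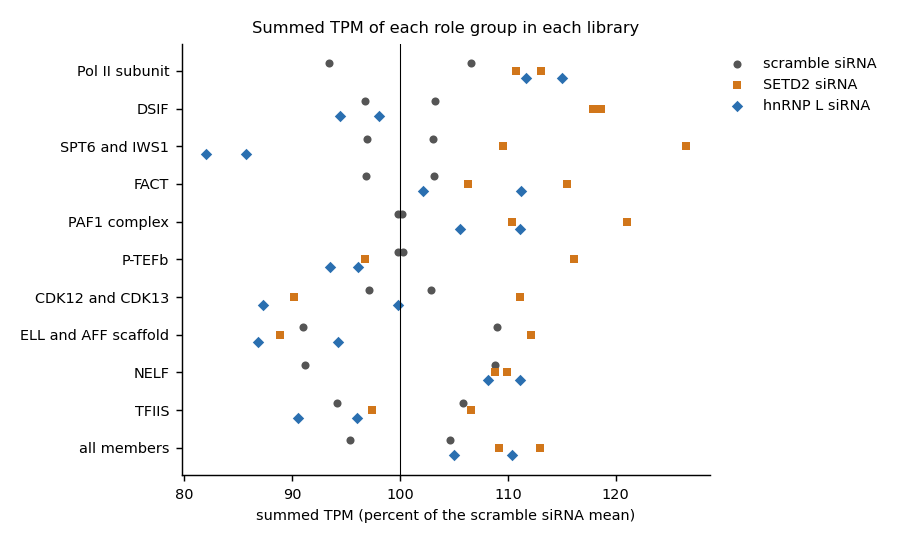
Summed TPM of each role group in each library, as percent of the mean of the 2 scramble siRNA libraries (black line). The Pol II subunits lie at 112% and 113% of scramble on average with SETD2 and hnRNP L siRNA, while SPT6 and IWS1 together lie at 118% with SETD2 siRNA and at 83.9% with hnRNP L siRNA.

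The members with the largest log2 fold change after SETD2 depletion did not pass the adjusted threshold. CDK9, the kinase of P-TEFb, was at 17.92 and 21.43 TPM in the scramble, 23.84 and 27.56 TPM in the SETD2 and 22.96 and 22.42 TPM in the hnRNP L siRNA libraries. Both depletions lay above both scramble libraries, with log2 fold changes of 0.38 ± 0.13 (adjusted p = 0.266) and 0.21 ± 0.13 (adjusted p = 0.319). The comparisons of both depletions share the scramble libraries, so a like direction in both is not independent. NELFB, a subunit of the pausing factor NELF, was at 24.83 and 28.84 TPM in the scramble, 33.04 and 34.81 TPM in the SETD2 and 31.70 and 32.62 TPM in the hnRNP L siRNA libraries. It showed the same order of groups as CDK9, and its log2 fold change after SETD2 depletion was 0.34 ± 0.11 (limma adjusted p = 0.264).

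IWS1, which binds SPT6 and is known to link SETD2 to elongating Pol II, was at 32.74 and 30.16 TPM in the scramble, 37.59 and 43.45 TPM in the SETD2 and 29.81 and 30.06 TPM in the hnRNP L siRNA libraries. The SETD2 siRNA libraries were the highest and the hnRNP L siRNA libraries lay just under both scramble libraries. Against scramble siRNA the log2 fold change was 0.36 ± 0.11 after SETD2 depletion (adjusted p = 0.248) and -0.07 ± 0.11 after hnRNP L depletion (adjusted p = 0.722). Directly between the depletions IWS1 was lower with hnRNP L siRNA, with a log2 fold change of -0.43 ± 0.11 (limma adjusted p = 0.0431), or 0.744-fold. With each library left out the adjusted p ran from 0.0478 to 0.236 and stayed under 0.05 in 2 of 6 fits, those without a scramble library. After median-ratio scaling it was 0.0797, with a log2 fold change of -0.32.

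**Figure D3:**
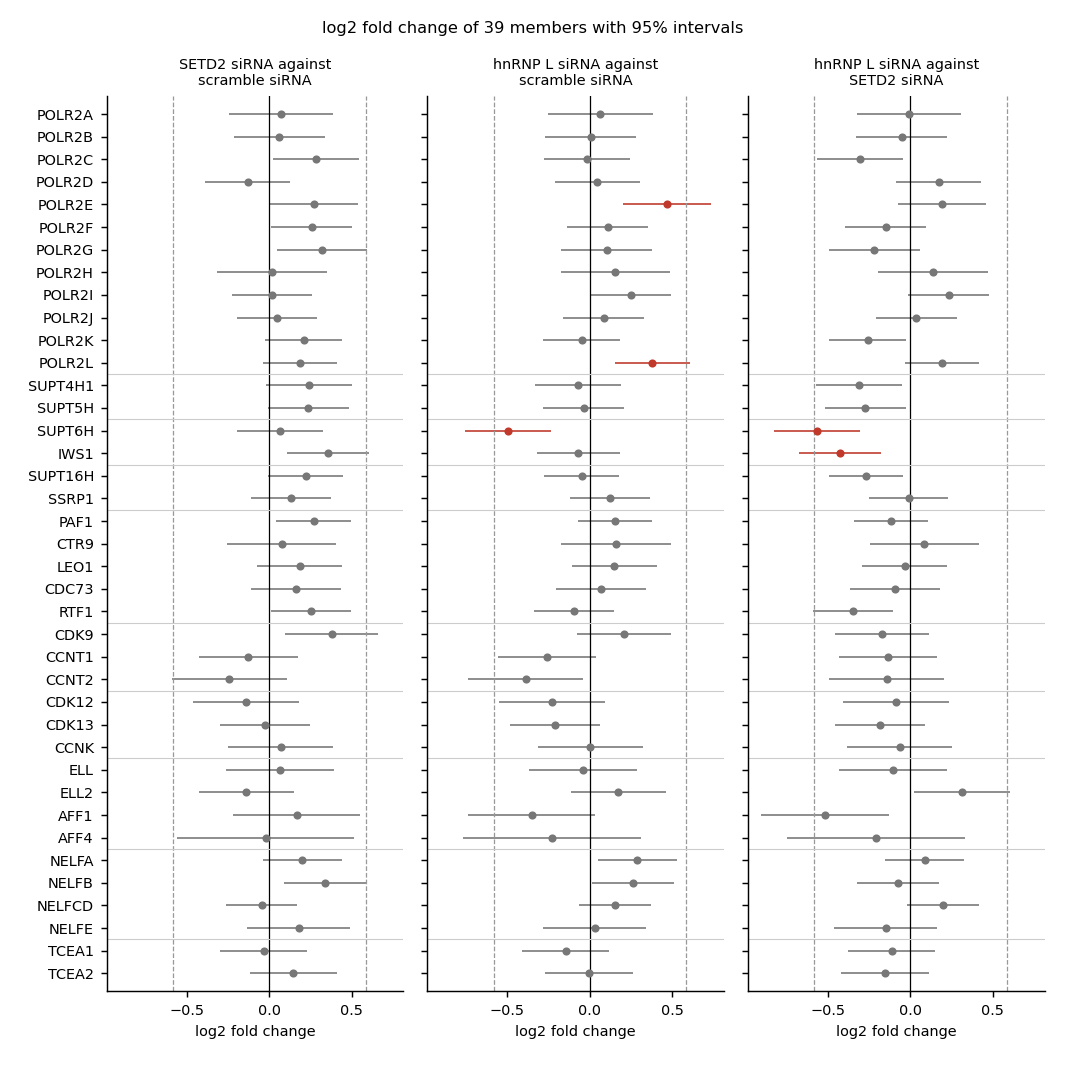
log2 fold change of each member with its 95% limma interval in the 3 comparisons; red marks an adjusted p under 0.05 and dashed lines mark 1.5-fold. SUPT6H, POLR2E and POLR2L are red after hnRNP L depletion, SUPT6H and IWS1 are red between the depletions, and no estimate lies beyond a dashed line.

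Upon hnRNP L depletion, again no member passed both cut-offs, which 1102 of the 16300 tested genes passed, 6.76%. An adjusted p under 0.05 alone was reached by 3 members, 7.69%, against 1826 tested genes or 11.2%, so that the share of members was no higher than that of all genes. POLR2E and POLR2L were upregulated (2.72% of all tested genes passed in this direction) and SUPT6H was downregulated (8.48%). At an unadjusted p under 0.05 there were 7 members, 17.9%, against 28.4% of all tested genes. Groups did not overlap for 19 members, 48.7%, against 56.6% of all tested genes. The median log2 fold change was 0.03 over the members and -0.08 over all tested genes.

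SUPT6H encodes SPT6, the histone chaperone that binds elongating Pol II and partners IWS1. It was at 26.74 and 25.80 TPM in the scramble, 25.66 and 29.57 TPM in the SETD2 and 17.52 and 19.42 TPM in the hnRNP L siRNA libraries. Both hnRNP L siRNA libraries lay below the other 4 libraries, which overlapped among themselves. SUPT6H fell by 0.50 on the log2 scale after hnRNP L depletion, with an SE of 0.11 and an adjusted p of 0.0290, to 0.708-fold of scramble. In bulk libraries, fewer cells with a transcript and less of it per cell cannot be told apart. Against SETD2 siRNA the log2 fold change was -0.57 ± 0.11 (limma adjusted p = 0.0185), and after SETD2 depletion against scramble it was 0.07 ± 0.11 (adjusted p = 0.832). Its direction was the same under all 20 alternatives against scramble siRNA, and its adjusted p was under 0.05 in 10 of them. Several of these, such as another filter, variance model or block, cannot change a fold change, so the direction was fixed there. Leaving out any of the 6 libraries raised the adjusted p against scramble to between 0.0511 and 0.205, with log2 fold changes of -0.57 to -0.43. Against SETD2 siRNA the adjusted p stayed under 0.05 in 2 of 6 such fits, those without a scramble library.

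POLR2E, a subunit that Pol II shares with Pol I and Pol III, was at 154.78 and 192.53 TPM in the scramble, 210.98 and 206.54 TPM in the SETD2 and 233.83 and 243.76 TPM in the hnRNP L siRNA libraries. The 3 groups did not overlap, and the scramble libraries lay furthest apart. The log2 fold change was 0.47 ± 0.12 after hnRNP L depletion (limma adjusted p = 0.0382), or 1.38-fold, and 0.27 ± 0.12 after SETD2 depletion (adjusted p = 0.371). The value rested in part on scramble library 1: it was 0.31 without that library (adjusted p = 0.0880) and 0.62 without scramble library 2 (adjusted p = 0.0226). That was the 1 fit of 6 with a library left out in which its adjusted p stayed under 0.05, the highest being 0.193.

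POLR2L, a small subunit also shared by the other polymerases, was at 104.69 and 104.10 TPM in the scramble, 127.02 and 111.41 TPM in the SETD2 and 135.55 and 136.52 TPM in the hnRNP L siRNA libraries. The replicates of scramble and of hnRNP L siRNA were close, and SETD2 siRNA lay between them. POLR2L rose by a log2 fold change of 0.38 ± 0.10 after hnRNP L depletion (limma adjusted p = 0.0431), or 1.3-fold. In TPM without the mitochondrially encoded genes its log2 fold change was 0.33 (adjusted p = 0.0573), and leaving out any 1 library raised its adjusted p to between 0.0666 and 0.224.

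In hg38, SUPT6H lies at chr17:28662198-28702679 on the plus strand and POLR2E at chr19:1086574-1095380 on the minus strand. Of the 39 members, 30 overlap another annotated gene, 25 of them a gene on the other strand, and whether the counting used strand is not stated in the sources used here. POLR2E overlaps ARHGAP45, POLR2L overlaps CD151 and SUPT6H overlaps an antisense gene without a symbol, so reads from these partners may not be told apart. The start regions of POLR2E and SUPT6H, a gene that rose and the gene that fell after hnRNP L depletion, are shown as RefSeq gives them for GRCh38.p14, from 250 bases before to 50 bases after the start. They are chr19:1095326-1095625 (minus strand) and chr17:28661955-28662254 (plus strand), and capitals mark GGGCGG, the GC box, or its reverse complement CCGCCC.
POLR2E: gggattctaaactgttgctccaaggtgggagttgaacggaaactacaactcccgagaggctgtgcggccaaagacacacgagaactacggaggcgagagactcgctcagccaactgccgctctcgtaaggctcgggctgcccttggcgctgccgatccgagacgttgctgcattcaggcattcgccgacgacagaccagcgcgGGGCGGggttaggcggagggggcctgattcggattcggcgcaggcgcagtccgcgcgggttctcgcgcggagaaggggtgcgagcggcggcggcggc
SUPT6H: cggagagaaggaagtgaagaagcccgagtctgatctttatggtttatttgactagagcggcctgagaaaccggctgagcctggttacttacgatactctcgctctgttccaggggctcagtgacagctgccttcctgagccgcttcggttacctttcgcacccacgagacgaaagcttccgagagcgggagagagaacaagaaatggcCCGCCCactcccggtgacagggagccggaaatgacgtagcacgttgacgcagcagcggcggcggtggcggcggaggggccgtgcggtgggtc
The windows hold 1 such match each and are 65.7% and 60.0% G and C, beside a median of 66.0% over the 32 members with a window and 58.3% over 27305 genes. GGGCGG on either strand was found for 24 of the 32 members, 75%, and for 48.3% of all genes. TATAAA, the TATA box, was found for 0 of 32 members and 14.0% of all genes, and CCAAT for 7 members, 21.9%, and 39.7% of all genes. CCGGAAG, the core bound by ETS factors, was found for 11 members, 34.4%, and 12.2% of all genes. GCGCATGC, part of the site of NRF1, was found for 6 members, 18.8%, and 3.68% of all genes. Both strands were searched, no motif contains another, and a match is a description of letters only. All genes here are the 27305 with a window, expressed in these cells or not. The members are all expressed, and their shares were not compared with those of expressed genes.

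The P-TEFb cyclin CCNT2 and the scaffold AFF1 were each among the 3 largest estimates of a comparison, CCNT2 after hnRNP L depletion and AFF1 between the depletions, and neither passed the adjusted threshold. CCNT2 was at 13.51 and 11.81 TPM in the scramble, 9.26 and 12.10 TPM in the SETD2 and 8.90 and 10.21 TPM in the hnRNP L siRNA libraries. The hnRNP L siRNA libraries lay below both scramble libraries, with a log2 fold change of -0.39 ± 0.15 (limma adjusted p = 0.138). AFF1, a scaffold of the super elongation complex, was at 5.84 and 5.06 TPM in the scramble, 5.47 and 6.94 TPM in the SETD2 and 3.69 and 4.66 TPM in the hnRNP L siRNA libraries. The hnRNP L siRNA libraries were the lowest, with log2 fold changes of -0.35 ± 0.17 against scramble siRNA (adjusted p = 0.212) and -0.52 ± 0.17 against SETD2 siRNA (adjusted p = 0.0853).

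**Figure D4:**
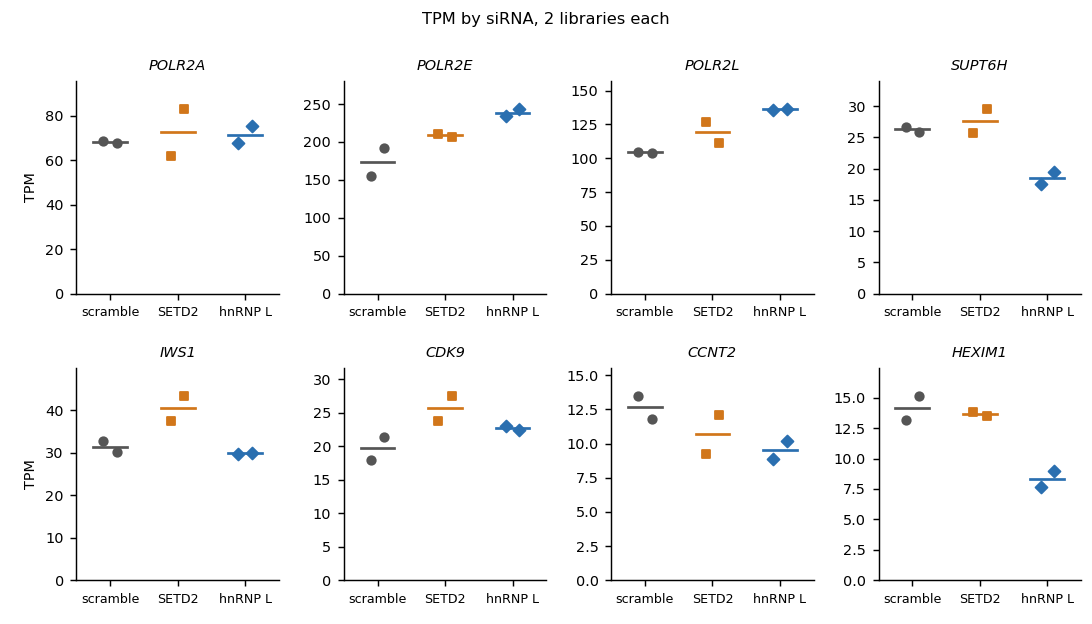
TPM of 7 members and of HEXIM1, which is not a member, in each library (points) with the mean of 2 libraries (line); each axis starts at 0. SUPT6H and HEXIM1 are lowest with hnRNP L siRNA, POLR2E and POLR2L are highest there, and IWS1 and CDK9 are highest with SETD2 siRNA.

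In the direct comparison of hnRNP L with SETD2 siRNA, no member passed both cut-offs, against 6.84% of all tested genes. SUPT6H and IWS1 passed the adjusted p alone, 5.13% of members against 10.8% of all tested genes. Both were lower with hnRNP L siRNA, a direction in which 7.99% of all tested genes passed, and no member was higher, against 2.77%. At an unadjusted limma p under 0.05 there were 10 members, 25.6%, against 28.5%. Groups did not overlap for 26 members, 66.7%, against 59.8%. This comparison shares libraries with the other 2, so its values are not independent of theirs.

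In the remaining role groups no member passed the adjusted threshold in any comparison. DSIF, the pausing and elongation factor of SUPT4H1 and SUPT5H, had log2 fold changes of 0.24 for both subunits after SETD2 depletion, and of -0.07 and -0.04 after hnRNP L depletion. Between the depletions SUPT4H1 was at -0.31 ± 0.12 (limma adjusted p = 0.114). SSRP1 and SUPT16H of FACT lay between -0.05 and 0.22 against scramble siRNA. The PAF1 complex promotes elongation through chromatin. Its 5 members here lay between 0.08 and 0.27 after SETD2 depletion and between -0.10 and 0.16 after hnRNP L depletion. Its subunit RTF1 was at -0.35 ± 0.11 between the depletions (limma adjusted p = 0.0704). WDR61, a further subunit of the complex that is not a member, was at 0.19 after SETD2 and -0.21 after hnRNP L depletion. Between the depletions WDR61 was at -0.40 ± 0.10 and passed the adjusted p alone (limma adjusted p = 0.0357). All 4 NELF subunits were above 0 after hnRNP L depletion, from 0.03 for NELFE to 0.29 for NELFA, and 3 of 4 were above 0 without the mitochondrially encoded genes. After SETD2 depletion they ran from -0.05 for NELFCD to 0.34 for NELFB. CDK12 and CDK13, kinases of the CTD, were at -0.23 and -0.21 after hnRNP L depletion, and their cyclin CCNK was at 0.00. The median over these genes was -0.21, and -0.06 with the trend on transcript length, described below, removed. These 3 genes ran from -0.14 to 0.07 after SETD2 depletion. The TFIIS genes, whose products rescue backtracked Pol II, were at -0.15 for TCEA1 and -0.01 for TCEA2 after hnRNP L depletion, and at -0.03 and 0.15 after SETD2 depletion.

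The intervals bound what could have been missed. Standard errors of the members' log2 fold changes ran from 0.10 to 0.24, with a median of 0.12, and were widest for AFF4, which was at 15.44 and 9.63 TPM in the scramble libraries. The 95% interval lay within 1.5-fold in both directions for 34 of 39 members after SETD2 depletion, and for 33 after hnRNP L depletion. The furthest bounds were 0.66 for CDK9 and -0.59 for CCNT2 after SETD2 depletion, and 0.73 for POLR2E and -0.77 for AFF4 after hnRNP L depletion. The intervals of the other 5 and 6 members still reached 1.5-fold.

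The balance between paralogs, which does not depend on the scaling between libraries, was compared for 5 pairs after each depletion. The ratio of CCNT1 to CCNT2, the alternative cyclins of P-TEFb, was 1.03 and 1.05 with scramble siRNA, 1.18 and 1.09 with SETD2 siRNA, and 1.20 and 1.08 with hnRNP L siRNA. Both depletions lay above the same 2 scramble libraries. The ratio of ELL to ELL2 was 0.822 and 1.03 with scramble siRNA, 1.17 and 0.993 with SETD2 siRNA, and 0.778 and 0.794 with hnRNP L siRNA. It was lowest with hnRNP L siRNA and overlapped between SETD2 and scramble siRNA. The ratio of CDK12 to CDK13 averaged 0.869 ± 0.0420, 0.801 ± 0.0448 and 0.858 ± 0.0829 (SD, n = 2) with scramble, SETD2 and hnRNP L siRNA. Its SETD2 siRNA libraries, at 0.833 and 0.769, lay below the scramble libraries, at 0.899 and 0.840, and its hnRNP L siRNA libraries overlapped with them. That of AFF1 to AFF4 averaged 0.452, 0.515 and 0.402, and that of TCEA1 to TCEA2 2.08, 1.84 and 1.90, with groups that overlapped. With 2 libraries a side the smallest two-sided p of an exact permutation test is 0.33, and all 10 tests gave 0.33 or more (0.741 or more after Benjamini-Hochberg adjustment).

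Transcript length moved with the differences among members. Across the 39 members, Spearman's rho between the length of the canonical transcript and the log2 fold change was -0.44 after SETD2 depletion, -0.54 after hnRNP L depletion and -0.17 between the depletions. Across 12802 tested protein-coding genes these were -0.22, -0.16 and 0.00. Length also went with the difference between replicates of 1 siRNA, with rho of -0.70 for scramble library 2 against 1, 0.70 for SETD2 library 3 against 2, and 0.58 for hnRNP L library 2 against 1 over the members. The 13 longest members, of 4433 to 9536 bases, were all higher in SETD2 library 3 than in 2 and all higher in hnRNP L library 2 than in 1, while 11 of 13 were lower in scramble library 2 than in 1. These points share libraries and base composition, and their part in the results was not tested beyond the following fit. With the trend on length removed within each library, 8 members passed the adjusted p alone after hnRNP L depletion, where 16.1% of all genes did. SUPT6H was then at -0.34 (limma adjusted p = 0.0216) and POLR2E at 0.60 (adjusted p = 0.0102). The median after hnRNP L depletion was then -0.10 for P-TEFb, -0.06 for CDK12, CDK13 and CCNK, and 0.02 for the ELL and AFF genes. In the deposited TPM these medians were -0.26, -0.21 and -0.14.

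**Figure D5:**
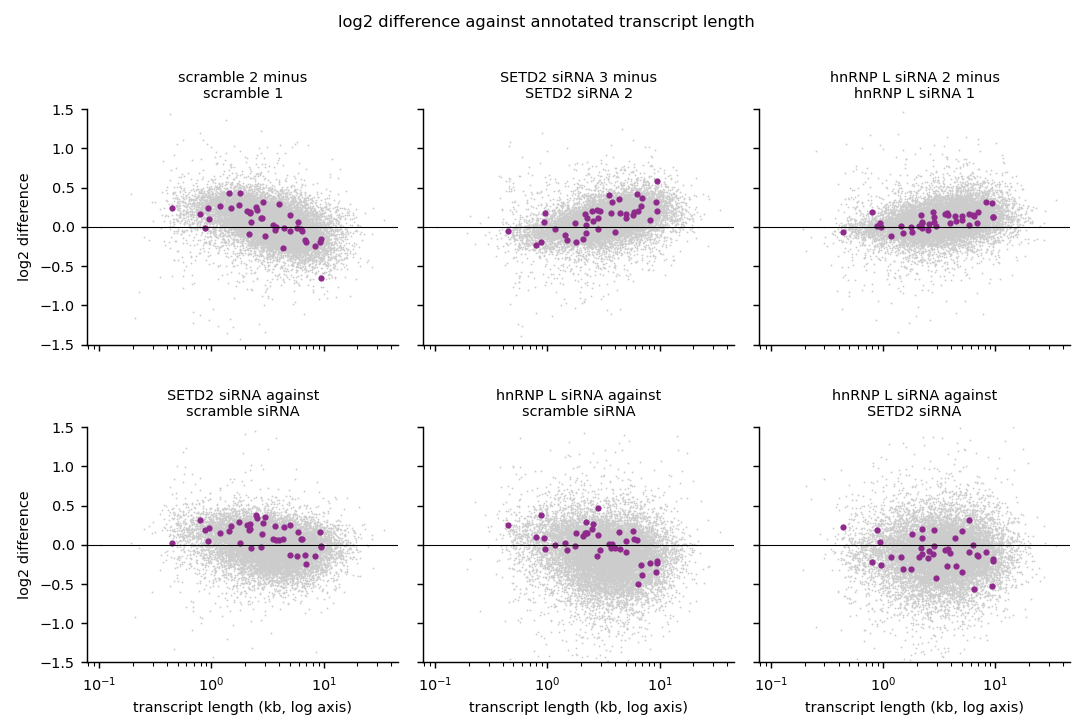
log2 difference (axis limited to 1.5 in both directions) against the length of the canonical transcript (kb, log axis) for members (purple) and other tested protein-coding genes (grey); the upper panels compare replicates of 1 siRNA and the lower panels compare siRNAs. Long members lie low in the scramble panel and high in the SETD2 and hnRNP L replicate panels, with rho of -0.70, 0.70 and 0.58.

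Genes beside the members were taken from lists of related factors. Of 17 other elongation regulators, none passed either threshold after SETD2 depletion. Of these, 2 had an unadjusted limma p under 0.05, where 13.1% of all tested genes did. After hnRNP L depletion 1 was called higher and 1 lower, where 6.76% of all tested genes were called. HEXIM1, the inhibitor that holds P-TEFb inactive in the 7SK particle, was at 13.20 and 15.17 TPM in the scramble, 13.80 and 13.46 TPM in the SETD2 and 7.66 and 8.95 TPM in the hnRNP L siRNA libraries. The hnRNP L siRNA libraries were apart from the other 4, with a log2 fold change of -0.74 ± 0.13 against scramble siRNA (limma adjusted p = 0.0114) and -0.69 ± 0.13 against SETD2 siRNA (adjusted p = 0.0145). ELL3, a further ELL paralog, was at 4.13 and 4.22 TPM in the scramble and 8.29 and 7.02 TPM in the hnRNP L siRNA libraries, a log2 fold change of 0.80 ± 0.14 (adjusted p = 0.0113). MLLT1, a reader subunit of the super elongation complex, was called between the depletions, at -0.74 ± 0.11 (adjusted p = 0.00628).

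None of the 18 general transcription factors, 9 CTD phosphatases and partners or 19 subunits of Pol I and Pol III was called against scramble siRNA after either depletion. Of all tested genes, 0.104% were called after SETD2 and 6.76% after hnRNP L depletion. After SETD2 depletion 3 of 18, 1 of 9 and 6 of 19 had an unadjusted limma p under 0.05, against 13.1% of all tested genes. After hnRNP L depletion 1, 2 and 4 of them did, against 28.4% of all tested genes. Between the depletions CTDP1, a CTD phosphatase, was called lower with hnRNP L siRNA, at -0.62 ± 0.15 (limma adjusted p = 0.0331). POLR2J4, a copy of POLR2J, has 2 rows in the table. The row at 17.46 and 21.79 TPM in the scramble and 30.61 and 28.79 TPM in the hnRNP L siRNA libraries was called, at 0.59 ± 0.13 (adjusted p = 0.0251), and the other, at 2.54 to 4.09 TPM, was not. POLR2J itself was at 97.34 and 115.19 TPM in the scramble and 110.19 and 114.36 TPM in the hnRNP L siRNA libraries, which overlap.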

How the data were processed

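The RNA-seq libraries of 293T cells were analysed, with siRNA groups and replicate numbers from the sample labels. According to the methods and the submitters' processing notes, the authors aligned paired reads to hg38 (Ensembl 96) with STAR 2.6.1c and made the deposited TPM per gene with RSEM 1.3.0. TPM keep no read counts, so the number of reads behind a single value is unknown. The study lists the aligned read pairs of each library, which were not used here. Libraries were described as biological replicates.

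log2(TPM + 0.5) was tested with limma 3.58.1 in R 4.3.3 (1 mean per siRNA, all 6 libraries, variance trend, prior degrees of freedom 5.74) over genes with a mean of at least 0.5 TPM, with Benjamini-Hochberg adjustment over the 16300 genes tested. Errors of fold changes are SE, and others are SD. The fit was checked on simulated data with hnRNP L siRNA against scramble siRNA. Of 50 genes changed by 1.5-fold, 6 passed both cut-offs, and of 50 changed by 2-fold, 26 did. Of 50 genes each changed by 3-fold and 4-fold, 45 and 40 did, and 2 unchanged genes were called. GENCODE 44 (hg38) gave positions and lengths.

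Members and related lists were chosen with earlier results of these data known. Named in full were POLR2A, members past the adjusted p and the 3 largest fold changes per comparison, and, from each related list, up to 3 called genes per comparison. Alternatives are given at the end.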

Additional observations from a re-analysis of the deposited data

How the results depend on the processing

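The count of members called after SETD2 depletion was 0 under every alternative run, with and without the fold-change cut-off. After hnRNP L depletion the count passing both cut-offs was 0 except for 1, POLR2E, with the trend on transcript length or on length and GC content removed (chosen after seeing the data), and it ranged from 0 to 1 with each library left out, the 1 being without scramble library 2. The count passing the adjusted p alone, 3, was 5 after median-ratio scaling (11.8% of all tested genes passed) and 5 after quantile normalization (11.2%), which added NELFA and NELFB, and 8 with the length trend (16.1%) or the length and GC trends (17.2%) removed. It was 0 with no filter (0.897%), with no variance trend (7.45%) and with only the 2 groups compared (5.58%). With the replicate block (numbers 1 and 2 of the labels) it was 0, and 795 instead of 1826 of all tested genes passed. With the numbers crossed, chosen after seeing the data since the deviations of equal numbers correlated at -0.126, it was 1, and 2107 of all genes passed. The samples share only a number, and SETD2 siRNA shares only 1 number with either other group, so no block was fitted for it. With each library left out the count ranged from 0 to 1. In hnRNP L against SETD2 siRNA the count, 2, was 1 without the mitochondrially encoded genes (9.36%) and 1 with no variance trend (7.31%), 0 with no filter (0.665%), 4 with the length trend (14.8%) and 6 with the length and GC trends (15.6%) removed. IWS1 was lost in each of these, and also after median-ratio scaling (NELFCD and SUPT6H passed) and quantile normalization (ELL2, POLR2I and SUPT6H). The count ranged from 0 to 2 with each library left out. Where an arm was left with 1 library, limma pooled the spread and that library is assumed to vary like the others. Apart from the loss of data in smaller fits, the cause was not tested. Over all members and comparisons, 1962 of 2184 alternative fold changes kept their direction and side of the threshold, 48 lost and 26 gained an adjusted p under 0.05, and 148 changed sign without passing it. Settings that change only the filter, the variance model or the block leave a fold change as it is, so part of the kept directions was fixed in advance. Median-ratio scaling moved the median over all genes in hnRNP L against SETD2 siRNA from -0.10 to 0.00 (log2). Paralog ratios were recomputed with 0.5 TPM added and with each library left out. Pseudocounts of 1 and 0.1, a minimum of 1 TPM and protein-coding and lncRNA genes only were also run. With 2 libraries per siRNA and no read counts, changes of 1.5-fold and above can be missed.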
